A study of Homo sapiens with 4 samples.

Results

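The genes described here are 31 known transcriptional targets of p53, its negative regulators among them, taken as a list of symbols. All 31 were matched to an Ensembl gene ID of the deposited count table, out of 25798 gene IDs in all, and the rows of each ID were summed. RNA sequencing was done on SW1990, an established human pancreatic adenocarcinoma line, unmodified in genotype by the labels. The cells of 2 libraries had received erianin, a plant bibenzyl known to bind tubulin, at 100 nM for 48 h. The cells of the other 2 libraries had received DMSO, the solvent, for the same time. The labels do not say whether replicates were separate cultures, so a p-value here reflects nothing beyond the spread among 4 libraries, possibly a technical one.

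The protein p53 is a transcription factor that is stabilised after DNA damage and other stresses, prolonged mitotic arrest included. It binds a pair of short half-sites in DNA and raises genes that halt the cell cycle (CDKN1A), repair DNA (DDB2, XPC), trigger apoptosis (BBC3, BAX, FAS) or restrain p53 itself (MDM2, PPM1D). MDM2 is a ubiquitin ligase that marks p53 for destruction, so its transcript is both a target and a brake. Many pancreatic tumours carry a mutated p53 gene, and the state of p53 in these cells was not measured by these libraries.

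The sequence that p53 is known to bind was looked for in the RefSeq promoter windows, which run from 250 bases before to 50 bases after an annotated start and were available for 25 of the 31 genes. The p53 half-site, 10 bases long and the same on both strands, was present in the window of 7 of these 25 genes (28%), against 8.06% of 27305 genes with a window. A full site, 2 half-sites with at most 1 base between them, was present in 1 of the 25, DDB2, against 0.026% of all genes with a window. The closest stretch to a full site is shown for 5 genes that recur below, 5′ to 3′ on the strand of the gene, with capitals for bases that match the half-sites and lower case for departures and for the base between half-sites (RefSeq, GRCh38.p14). A match is a description of letters in the window, and sites farther away, such as those upstream of CDKN1A, lie outside it.
DDB2, chr11:47214979-47214999, plus strand: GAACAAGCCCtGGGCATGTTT
MDM2, chr12:68808923-68808942, plus strand: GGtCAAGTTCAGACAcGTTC
AEN, chr15:88621306-88621325, plus strand: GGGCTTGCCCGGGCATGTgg
FAS, chr10:88991309-88991328, plus strand: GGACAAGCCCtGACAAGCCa
GDF15, chr19:18386186-18386205, plus strand: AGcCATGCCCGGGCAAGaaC
The DDB2 stretch had no departure from 2 half-sites, those of MDM2, AEN and FAS had 2 departures each, and that of GDF15 had 3. In CDKN1A the closest stretch of the window had 5 departures.

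Library totals lay between 59923935 and 63336545 estimated counts. The ductal markers KRT7, KRT8, KRT18, KRT19, EPCAM, CDH1 and MUC1 were found in all 4 libraries and added up to between 12168 CPM (counts scaled to library size) in DMSO replicate 1 and 14955 CPM in erianin replicate 2, though EPCAM and MUC1 stayed between 2.39 and 6.05 CPM. Of 6 fibroblast markers, 4 had counts in all libraries. The sum of the 6 was 38.5 CPM in DMSO replicate 1 and between 11.2 and 14.3 CPM in the other libraries, with DCN at 0 in both erianin libraries and COL3A1 at 0 in erianin replicate 1. Markers of blood, endothelium, acini and islets added up to at most 1.3 CPM per type and library. The part of these other cells in the results was not tested. In erianin replicate 2, 46.7% of the tested p53 targets and 37.3% of all genes tested had their lowest value of the 4 libraries.

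The p53 targets covered a wide span of transcript levels in the cells that had received DMSO. By FPKM, which allows for transcript length, 14 of the 31 genes had a DMSO mean of at least 10, and 8 had one under 0.5. BAX, the pore-forming effector of mitochondrial apoptosis, stood highest at 125.31 and 128.18 FPKM. It was followed, each without overlap of the DMSO libraries with the next, by CCNG1 (37.74 and 33.88 FPKM), FDXR (28.23 and 25.41 FPKM) and GDF15 (23.73 and 21.82 FPKM). TP53I3, PHLDA3 and PERP came next and overlapped in turn. CDKN1A, the CDK inhibitor p21, ranked 13 at 12.85 and 9.58 FPKM, overlapping SESN2 and, just above it, TNFRSF10B. At 1.11 and 1.24 FPKM, MDM2 ranked 22, with 39.8% of all genes tested below it. The lowest were PPM1D, ZMAT3, MDM4, BTG2, FAS, SESN1, TP53INP1 and SPATA18. SPATA18, a mitochondrial quality control gene, had 5 counts in DMSO replicate 2 and 0 in every other library, where 0 counts still allow up to 3 counts, or 0.0455 to 0.054 CPM. It was the 1 target that did not reach the minimum count for testing.

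**Figure D1:**
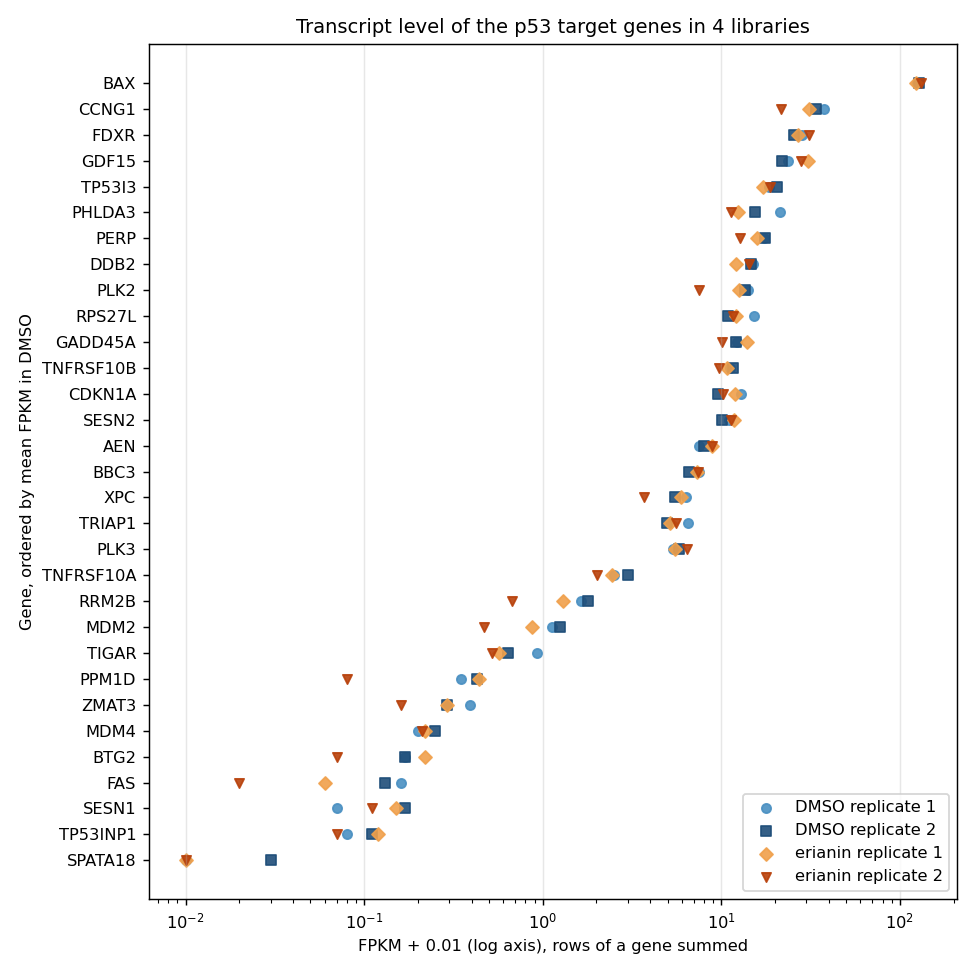
Transcript level of each of the 31 p53 target genes in the 4 libraries, in FPKM plus 0.01 on a log axis, with the genes ordered by their DMSO mean. BAX stands highest at a DMSO mean of 127 FPKM, and the erianin replicate 2 symbol lies to the left of the others for PLK2, RRM2B, MDM2 and PPM1D.

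The comparison of erianin with DMSO asked whether transcripts of the p53 programme differ after exposure to the compound. None of the 30 tested targets passed the test (edgeR's quasi-likelihood test on counts, adjusted p under 0.05, 0 of 30; smallest adjusted p = 0.575), and 0.041% of all 17090 genes did. DESeq2 and limma-voom also called 0 of the 30. Each gave 6 with an unadjusted p under 0.05, and the share of all genes at that level was not computed for those fits. In the edgeR fit, 4 targets (13.3%) had an unadjusted p under 0.05, against 8.1% of all genes. GDF15 was the 1 on the higher side (3.33%, against 2.21%), and MDM2, RRM2B and CCNG1 were the 3 on the lower side (10%, against 5.89%). Of the 30 log2 fold changes, 16 were above 0 (53.3%, against 48.7% of all genes) and the median was 0.02, against -0.01 over all genes. They ran from -0.77 for MDM2 to 0.44 for GDF15, and 26 of them lay within 1.5-fold. The 2 erianin libraries did not overlap the 2 DMSO libraries on the higher side for 5 targets (16.7%, against 21.7% of all genes) and on the lower side for 8 (26.7%, against 24.4%). These shares are near those of all genes. Of 4 fits that left out 1 library, 3 called 0 targets and that without erianin replicate 1 called 8 of 30, against 17.5% of all 18116 genes tested there (3166). That fit rests on erianin replicate 2 alone, taken to vary as the DMSO libraries do. The 8 were MDM2, RRM2B, CCNG1, PLK2, PPM1D and PERP, all below 0, and GDF15 and FDXR, both above 0, with adjusted p from 0.00733 to 0.0378. With the GC and length trend also removed from that fit, 2 targets, PLK2 and RPS27L, passed, against 3.82% of all genes.

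**Figure D2:**
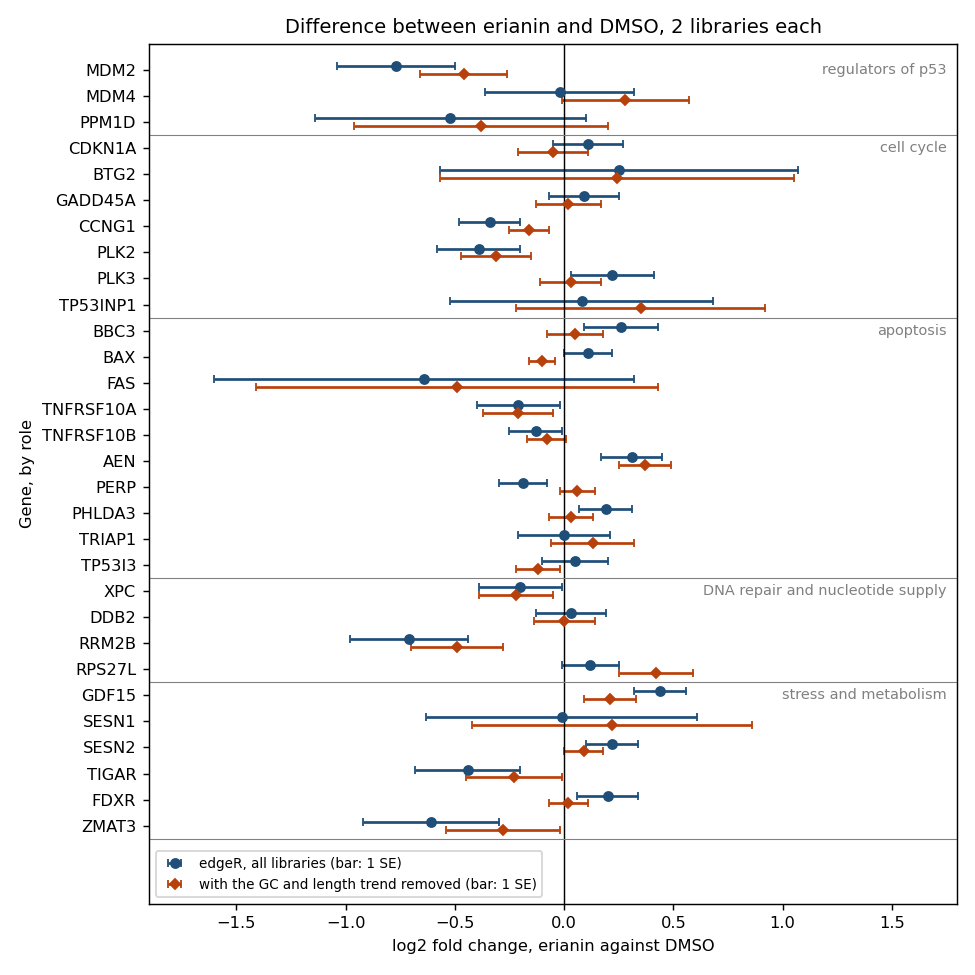
log2 fold change of erianin against DMSO for the 30 tested p53 target genes by role, with bars of 1 standard error (2 libraries per group), as fitted and after removing the trend of each library over GC content and length. MDM2 at -0.77 and GDF15 at 0.44 are the ends of the range, and both lie nearer to 0 once the trend is removed.

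Among the genes that restrain p53, MDM2 (GRCh38 chromosome 12, 68808176 to 68850686, plus strand) had 9.32 and 9.87 CPM under DMSO and 7.18 and 4.03 under erianin. Both erianin libraries were below both DMSO libraries, and the lower of them held 0.562 of the level of the other. Its log2 fold change was -0.77 ± 0.27 (SE, edgeR, adjusted p = 0.575, unadjusted p = 0.0227), equal to 1.71-fold lower. The value was -0.42 without erianin replicate 2 and -1.26 without erianin replicate 1, where the adjusted p was 0.00733. PPM1D (chromosome 17, 60600183 to 60666280, plus strand) encodes WIP1, a phosphatase that acts on p53 and its kinases. It had 1.79 and 2.24 CPM under DMSO and 2.31 and 0.486 under erianin. Only erianin replicate 2 was low, so the groups overlapped and the log2 fold change of -0.52 had a standard error of 0.62. MDM4 (chromosome 1, 204516379 to 204558120, plus strand), a relative of MDM2 that blocks the activity of p53, had a log2 fold change of -0.02 ± 0.34 (SE) from 1.85 and 1.94 CPM under DMSO and 2.25 and 1.48 under erianin. The erianin values of MDM4 lay on either side of those in DMSO.

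Among the cell cycle targets, CDKN1A (chromosome 6, 36676460 to 36687339, plus strand) had 29.6 and 23 CPM under DMSO and 29.1 and 27.7 under erianin. The erianin values lay between the DMSO values. Its log2 fold change was 0.11 ± 0.16 (SE, edgeR, adjusted p = 0.815), and it was -0.05 without the GC and length trend. CCNG1 (chromosome 5, 163437569 to 163446151, plus strand) encodes cyclin G1, which recruits a phosphatase to MDM2. It had 102 and 91.8 CPM under DMSO and 86.2 and 66.2 under erianin. The groups did not overlap, with erianin replicate 2 lowest, and the log2 fold change was -0.34 ± 0.14 (SE, adjusted p = 0.575, unadjusted p = 0.0401). The value for CCNG1 was -0.16 without erianin replicate 2, -0.56 without erianin replicate 1 (adjusted p = 0.00797) and -0.16 without the GC and length trend (unadjusted p = 0.106).

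Polo-like kinases 2 and 3, both induced by stress, lay on different sides of 0. PLK2 (chromosome 5, 58453982 to 58460260, minus strand) had 43.7 and 42.3 CPM under DMSO and 39.6 and 26 under erianin, a log2 fold change of -0.39 ± 0.19 (SE). It was -0.12 without erianin replicate 2, the library that lay far below the other 3. PLK3 had 13.4 and 13 CPM under DMSO and 13 and 17.8 under erianin, with a log2 fold change of 0.22 ± 0.19 (SE) and overlapping groups. GADD45A, a growth arrest gene, had a log2 fold change of 0.09 ± 0.16 (SE). BTG2, an antiproliferative gene, and TP53INP1, a p53 cofactor, were under 1 CPM in every library, with values of 0.25 ± 0.82 and 0.08 ± 0.60 (SE). Over the 7 cell cycle targets, 0 passed, 5 lay above 0 and the median was 0.09.

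Of the 10 apoptosis targets, 0 passed, 6 lay above 0 and the median log2 fold change was 0.03. AEN (chromosome 15, 88621296 to 88632282, plus strand), a nuclease that degrades DNA in dying cells, had 25.3 and 27.4 CPM under DMSO and 30.9 and 34.3 under erianin. Both erianin libraries were above both DMSO libraries. Its log2 fold change was 0.31 ± 0.14 (SE, adjusted p = 0.575, unadjusted p = 0.0565). It was 0.37 ± 0.12 with the GC and length trend removed (edgeR, unadjusted p = 0.0182, adjusted p = 0.738). When any 1 library was left out, it stayed between 0.23 and 0.37 with the trend in place and between 0.24 and 0.49 with it removed. BBC3 (chromosome 19, 47220822 to 47232766, minus strand) encodes PUMA, a BH3-only killer protein. It had 13.5 and 11.5 CPM under DMSO and 13.9 and 15.9 under erianin, higher in both erianin libraries by a small margin. The log2 fold change of BBC3 was 0.26 ± 0.17 (SE), and 0.05 with the trend removed. BAX, at 162 and 166 CPM under DMSO and 163 and 190.1 under erianin, had one of 0.11 ± 0.11 (SE), or -0.10 with the trend removed.

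The death receptor genes were all below 0. FAS (chromosome 10, 88990582 to 89015785, plus strand), the receptor of FAS ligand, had 32 and 20 counts in DMSO and 28 and 4 counts in erianin. In scaled terms that was 0.485 and 0.321 CPM under DMSO and 0.44 and 0.072 under erianin, with only erianin replicate 2 low, and a log2 fold change of -0.64 ± 0.96 (SE). By FPKM, where FAS had 0.15 and 0.12 in DMSO, both erianin libraries were lower, at 0.05 and 0.01. The few counts fell in different rows of the gene. In DMSO replicate 1, 27 counts in one row gave 0.09 FPKM, and in erianin replicate 1, 23 counts in another gave 0.04. The part of this division in the FPKM difference was not tested. TNFRSF10A and TNFRSF10B encode the TRAIL receptors DR4 and DR5. TNFRSF10B had 40.8 and 40.6 CPM under DMSO and 38.4 and 35.9 under erianin, without overlap, and a log2 fold change of -0.13 ± 0.12 (SE). That of TNFRSF10A was -0.21 ± 0.19 (SE). PERP, a desmosome-linked effector of apoptosis, had one of -0.19 ± 0.11 (SE) and turned to 0.06 with the trend removed. PHLDA3, an AKT inhibitor, TP53I3, an oxidoreductase, and TRIAP1, a mitochondrial lipid transfer protein, had 0.19 ± 0.12, 0.05 ± 0.15 and 0.00 ± 0.21 (SE).

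Targets that serve DNA repair and nucleotide supply gave 2 values above 0 and 2 below, with 0 past the threshold. RRM2B encodes the p53-inducible subunit of ribonucleotide reductase. It had 8.06 and 8.59 CPM under DMSO and 6.42 and 3.71 under erianin. As for MDM2, both erianin libraries were lower and erianin replicate 2 was lowest. Its log2 fold change was -0.71 ± 0.27 (SE, edgeR, adjusted p = 0.575, unadjusted p = 0.0309), with -0.37 without erianin replicate 2 and -1.18 without erianin replicate 1 (adjusted p = 0.00903). XPC and DDB2, which recognise damage in nucleotide excision repair, were at -0.20 ± 0.19 and 0.03 ± 0.16 (log2 fold change and SE), and their groups overlapped. DDB2, the gene with the full p53 site shown above, had 26.6 CPM in each DMSO library and 23.7 and 30.7 CPM in erianin. RPS27L, a ribosomal protein paralog that also binds MDM2, had 58 and 55.7 CPM under DMSO and 56.1 and 67.2 under erianin, a log2 fold change of 0.12 ± 0.13 (SE). Without the GC and length trend it was 0.42 ± 0.17 (SE, unadjusted p = 0.0436, adjusted p = 0.738). RPS27L is a close paralog of RPS27, and how reads that match both were counted is not given.

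Targets linked to stress and metabolism included the gene with the highest log2 fold change of the list, GDF15 (chromosome 19, 18374731 to 18389176, plus strand), a secreted stress cytokine that other stress factors also induce. GDF15 had 32 and 30.4 CPM under DMSO and 41.8 and 42.7 under erianin. The libraries of each group lay close together and the groups were apart, at 31.2 ± 1.09 and 42.3 ± 0.618 CPM (SD, n = 2 each). The log2 fold change of GDF15 was 0.44 ± 0.12 (SE, edgeR, adjusted p = 0.575, unadjusted p = 0.00731), equal to 1.36-fold higher, and lay between 0.40 and 0.47 when any 1 library was left out. Without the GC and length trend it was 0.21 ± 0.12 (SE, edgeR, unadjusted p = 0.117). Leaving out 1 library as well gave values from 0.07, without erianin replicate 1, to 0.33, without erianin replicate 2. SESN2, a sestrin that restrains mTORC1, had 42.6 and 39.5 CPM under DMSO and 46.4 and 49.5 under erianin, a log2 fold change of 0.22 ± 0.12 (SE). Its paralog SESN1 was under 1 CPM in every library, at -0.01 ± 0.62 (SE).

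ZMAT3 (chromosome 3, 179017223 to 179072279, minus strand), an RNA-binding regulator of splicing, had 3.61 and 2.69 CPM under DMSO and 2.42 and 1.71 under erianin. The groups did not overlap, and the log2 fold change was -0.61 ± 0.31 (SE), or -0.28 with the trend removed and -0.38 without erianin replicate 2. TIGAR (chromosome 12, 4307763 to 4354593, plus strand), a phosphatase that slows glycolysis, had 8.48 and 5.8 CPM under DMSO and 5.26 and 5.31 under erianin. The erianin libraries were alike and DMSO replicate 1 stood above the rest. The log2 fold change of TIGAR was -0.44 ± 0.24 (SE), and -0.14 without DMSO replicate 1. FDXR, a mitochondrial ferredoxin reductase, had 57.5 and 52.7 CPM under DMSO and 56.4 and 70.7 under erianin, a log2 fold change of 0.20 ± 0.14 (SE).

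The 2 erianin libraries differed from each other over these genes. For 14 of the 30 tested targets they lay on opposite sides of the DMSO mean. That is a larger share than the 32% of the 16343 genes with counts in all libraries, and the difference was not tested. In 23 of the 30, erianin replicate 2 was farther from the DMSO mean than erianin replicate 1 was, against 71% of those genes. Against the DMSO libraries, the median target was at -0.01 in erianin replicate 1 and at -0.11 in erianin replicate 2 (log2 CPM), where all genes were at 0.00 and -0.02. GDF15 had 0.42 and 0.45 and TIGAR -0.44 and -0.43 in erianin replicates 1 and 2, so both libraries gave the same size. That held with the GC and length trend in place. With the trend removed, GDF15 was at 0.33 without erianin replicate 2 and at 0.07 without erianin replicate 1, and TIGAR at -0.35 and -0.11. MDM2 had -0.42 and -1.25, RRM2B -0.37 and -1.17, ZMAT3 -0.38 and -0.88, and PLK2 -0.12 and -0.73. For these 4 genes the direction was shared and the size was not. PPM1D had 0.20 and -2.05, and FAS 0.13 and -2.48, with the library that was low supplying the negative value.

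**Figure D3:**
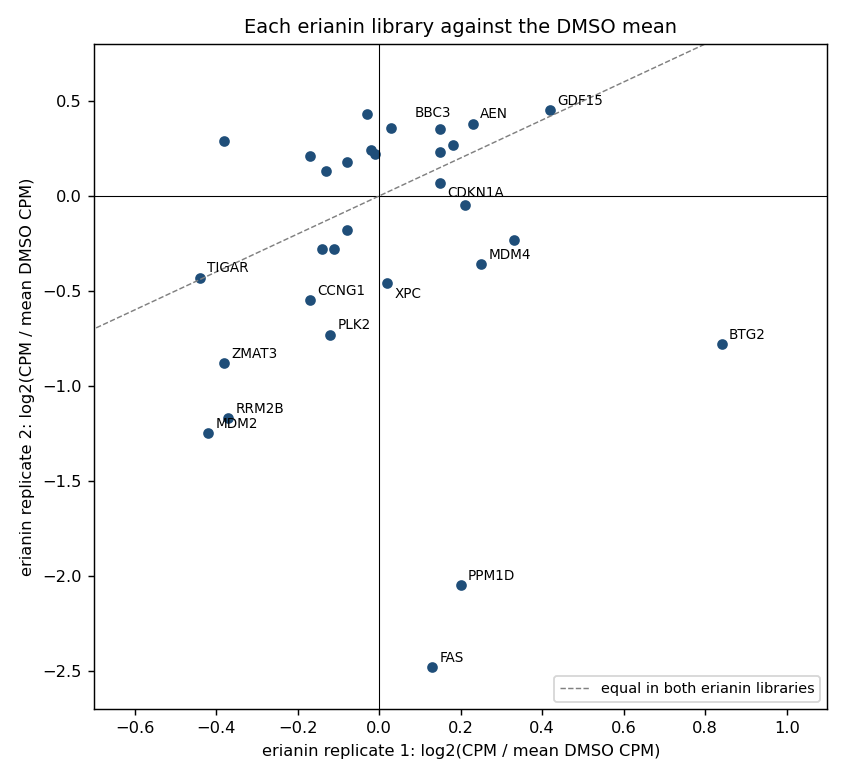
log2 ratio of each erianin library to the mean DMSO CPM for the 30 tested p53 target genes, erianin replicate 1 on the horizontal and erianin replicate 2 on the vertical axis, with a dashed line of equal ratios. GDF15 and TIGAR lie on the line, MDM2 and RRM2B below it, and PPM1D and FAS at -2.05 and -2.48 in erianin replicate 2.

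The fold changes of the p53 targets followed the GC content of their transcripts, as did those of all genes. Of the tested targets with a GC content of 55% or more, all 9 lay above 0, at a median log2 fold change of 0.20, and 76.5% of all genes of that GC content did, with a median of 0.14. The 9 targets are BAX, BBC3, CDKN1A, FDXR, GDF15, PHLDA3, PLK3, SESN2 and TP53I3. Each had a mean log2 CPM of at least 3. Of all genes of that GC content and level, 90.3% lay above 0, with a median of 0.16. Of the 12 targets under 45%, 3 were above 0 and the median was -0.27, against 23.9% and -0.26 for all genes of that GC content. MDM2 (41.9%), RRM2B (36.4%), CCNG1 (38.2%), ZMAT3 (39.5%) and TIGAR (44.2%) belong to that group. The 9 targets from 45% to 55% had a median of -0.13, against -0.02. Across the 30 targets, which share libraries and are not independent replicates, Spearman's rho between GC content and log2 fold change was 0.745. Over the 18 targets whose mean log2 CPM reached 3 it was 0.703, and over the 8014 genes that reached it, 0.663.

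After the trend of each library over GC content and length was removed, 22 of the 30 log2 fold changes were nearer to 0 and 6 changed sign. The median of the high-GC targets became 0.03 and that of the low-GC targets -0.05. MDM2 then had -0.46 ± 0.20 (SE, edgeR, unadjusted p = 0.0495, adjusted p = 0.738) and RRM2B had -0.49 ± 0.21 (SE). AEN and RPS27L were among the 8 that lay farther from 0. In this fit 0 of 30 targets passed, and 5 of all 17090 genes did. MDM2, AEN and RPS27L, 3 targets in all, had an unadjusted p under 0.05. The share of all genes at that level was not computed for this fit. Whether 3 of 30 is more than that share was therefore not tested.

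**Figure D4:**
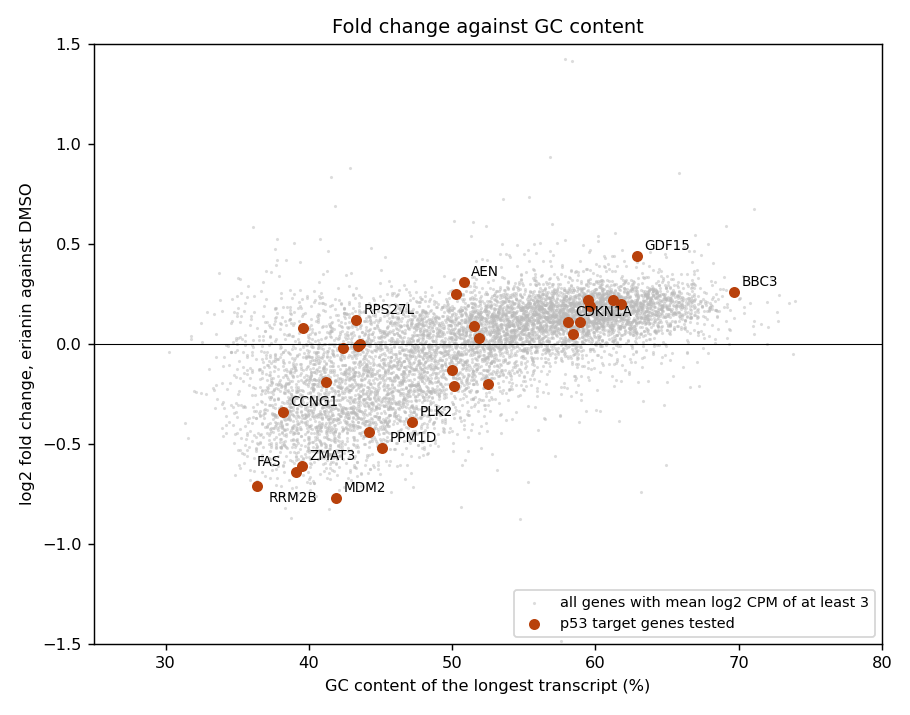
log2 fold change of erianin against DMSO versus the GC content of the longest annotated transcript in percent, for the 30 tested p53 target genes (large points) and all genes whose mean log2 CPM reached 3 (small points). The vertical axis ends at 1.5 on either side. The large points follow the slope of the small ones, with AEN and RPS27L among those above it and MDM2 and RRM2B among those below.

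The deposited table divides most genes into several rows, without transcript names, and the division of a target's counts between its rows was compared between libraries as a description. Of 20 targets with several rows and at least 100 counts in every library, 2 had a share of the largest row that did not overlap between the groups and was 20 or more percentage points apart, against 9.69% of 9989 genes of this kind. The gene PHLDA3 was one. Its largest row, whose count and FPKM imply a length near 2745 bases, held 52.4% and 77.7% of its counts in DMSO and 97.4% and 98.7% in erianin. A second row of PHLDA3, near 895 bases, held 1031 and 424 counts in DMSO and 31 and 24 in erianin. The total count of PHLDA3 was slightly higher under erianin, without overlap, at 33.1 and 32.2 CPM under DMSO and 36.2 and 38.3 under erianin. Its summed FPKM was lower, at 21.38 and 15.35 in DMSO and 12.36 and 11.3 in erianin. BBC3 was the other, with 75.2% and 37.5% in DMSO and 77.1% and 89.6% in erianin, so that DMSO replicate 2 alone stood apart. In FDXR the share of the largest row ran from 12% in erianin replicate 1 to 56.1% in DMSO replicate 1, with no order by group. For MDM2 one row held at least 97.3% of the counts in every library, and for CDKN1A one row held 89.6% to 93.8%. Reads of overlapping transcripts are assigned by estimate, so a shift between rows was not tested as a change of isoform.

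**Figure D5:**
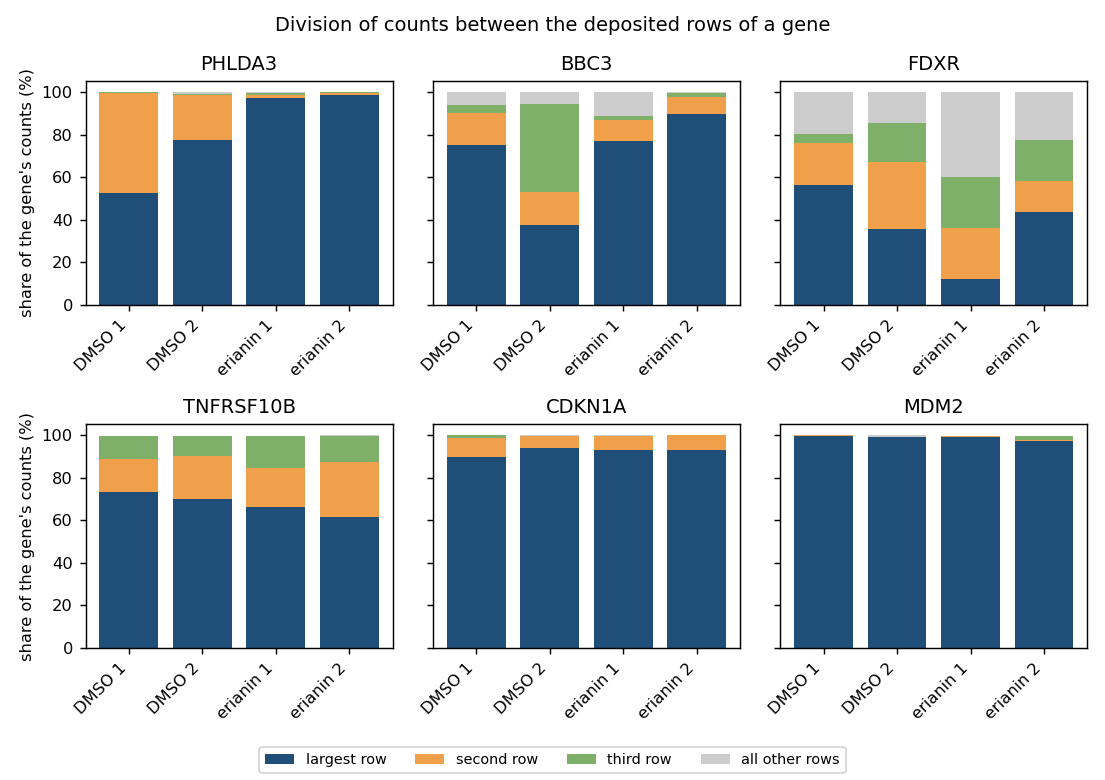
Share of a gene's counts, in percent, held by each of its 3 largest deposited rows and by all other rows in each of the 4 libraries, for 6 p53 target genes. The largest row of PHLDA3 holds over 97% in both erianin libraries and 52.4% and 77.7% in DMSO, whereas that of MDM2 holds over 97% throughout.

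Of 68 further reported p53 targets, 64 were tested and 0 passed (edgeR, adjusted p under 0.05). Of these, 30 lay above 0 (46.9%, against 48.7% of all genes), and the median log2 fold change was -0.03, against -0.01. An unadjusted p under 0.05 was found for 6 (9.38%, against 8.1% of all genes), 1 above 0 and 5 below. Among the 5 below, TNFRSF10C and TRIM22 reached the minimum count for testing only in the DMSO libraries. These genes could therefore enter the test only as genes lower under erianin. The share of all genes was taken under the same filter. Without erianin replicate 1, a fit that rests on erianin replicate 2 alone, CASP8AP2 was at -1.23 and TRAF4 at 0.43. CASP8AP2, a histone transcription and apoptosis cofactor, had 2.65 and 2.64 CPM under DMSO and 1.02 and 1.13 under erianin, a log2 fold change of -1.30 ± 0.31 (SE, adjusted p = 0.575) that ran from -1.37 to -1.23 when 1 library was left out. TRAF4, a signalling adaptor, had 75.6 and 75.4 CPM under DMSO and 86.4 and 103 under erianin, at 0.32 ± 0.11 (SE). TNFRSF10C, a decoy receptor for TRAIL, had 15 counts in each DMSO library and 0 in the erianin libraries, which is at least 4.21-fold lower if each library without a count is set to 3 counts. TRIM22 and TLR3, both also interferon-responsive, were at -2.29 ± 0.89 and -1.32 ± 0.53 (log2 fold change and SE) from at most 0.636 and 1.29 CPM.

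Of 25 regulators of p53 outside the list, 24 were tested and 0 passed. Of the 24, 6 lay above 0 (25%, against 48.7% of all genes), and the median was -0.29, against -0.01. An unadjusted p under 0.05 was found for 6 (25%), all below 0, against 5.89% of all genes on that side. TP53BP1, a damage adaptor that also binds p53, had 26.4 and 24.2 CPM under DMSO and 19.8 and 14 under erianin, a log2 fold change of -0.58 ± 0.19 (SE, edgeR, adjusted p = 0.575). CHEK1, a checkpoint kinase, had 12.7 and 15.2 CPM under DMSO and 10.2 and 9.48 under erianin, at -0.50 ± 0.17 (SE). USP7, which removes ubiquitin from MDM2 and p53, had 25.1 and 22.7 CPM under DMSO and 19.3 and 14.9 under erianin, at -0.48 ± 0.17 (SE). NPM1, a nucleolar protein that binds MDM2, was at -0.32 ± 0.13 (SE), and EP300, an acetyltransferase and coactivator of p53, at -0.41 ± 0.16 (SE). For each of these 5 genes both erianin libraries were below both DMSO libraries. When 1 library was left out, TP53BP1 ran from -0.87 to -0.35, CHEK1 from -0.63 to -0.37, USP7 from -0.69 to -0.31, NPM1 from -0.52 to -0.16 and EP300 from -0.56 to -0.24. The lowest values of TP53BP1, USP7 and NPM1 were those without erianin replicate 1, a fit that rests on erianin replicate 2 alone. The regulators were not set against genes of like GC content. Of all genes under 45% GC, 23.9% lay above 0, with a median of -0.26. GC content was 41.5% for CHEK1, 43.3% for NPM1, 45.7% for TP53BP1 and USP7 and 52% for EP300. With the GC and length trend removed, the median of the regulators was -0.16. TP53BP1 was then at -0.33, EP300 at -0.32, USP7 at -0.28, CHEK1 at -0.25 and NPM1 at -0.18. Their unadjusted p (edgeR) was 0.0304, 0.0434, 0.0463, 0.152 and 0.0666 in that order, with adjusted p from 0.738 to 0.763.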

How the data were processed

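The authors deposited whole-number estimated counts per row, without normalization, in 107429 rows for 25798 gene IDs. The FPKM values were deposited by the authors for the same rows. Per the submitters' processing notes, fastp, STAR, StringTie 2.2.1, featureCounts 2.0.1 and GRCh38 were used, with no role or order. Neither strandedness nor the annotation is given in the sources used here. For 9 targets, MDM2, CDKN1A, FAS, TNFRSF10A, TNFRSF10B, TP53I3, XPC, PLK3 and TIGAR, exons overlap a gene on the other strand, and without strand information those reads cannot be told apart.

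Rows were summed per gene ID. Names came from a table that held 25779 of the IDs. GENCODE release 29 gave positions and, for the longest transcript, GC content and length (97.8% of the genes tested). That transcript need not be the one counted. It had 5039 bases for AEN, 12633 for MDM2 and 3633 for TIGAR, where the largest row implied near 3069, 7468 and 8167 bases. For CDKN1A the lengths were closer, at 2267 and near 2115 bases. The effect on values with the trend removed was not tested. Counts were tested with edgeR 4.0.16 (R 4.3.3): TMM factors from 0.928 to 1.04, filterByExpr with a minimum count of 10, which left 17090 genes, the quasi-likelihood F test with group as the only term and 2 residual degrees of freedom, and Benjamini-Hochberg adjustment over all genes at 0.05. Many genes share an adjusted p because of that adjustment. CPM uses TMM-adjusted totals. Standard errors are the log2 fold change over the square root of F. The GC and length trend of each library, fitted by natural splines (5 degrees of freedom) to genes whose mean log2 CPM reached 3, was used as an offset. The edgeR fit without that offset was tested on simulated data. Alternatives used DESeq2 1.42.0, limma 3.58.1, other scalings and filters, the replicate number as a block and each library left out.

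The p53 targets and the other lists were chosen with earlier results of these data known. Values per library are given for MDM2, CDKN1A, GDF15, targets with an unadjusted p under 0.05 and the largest further fold changes up to 12 genes, and, of each other list, the 5 genes with the smallest p. Other targets were added as examples after their values were seen. The gene of p53 itself is not reported here.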

Additional observations from a re-analysis of the deposited data

How the results depend on the processing

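Of 617 log2 fold changes of the p53 targets under 22 alternatives, 519 kept the direction and the side of the threshold, 87 reversed and 11 newly passed. AEN, CCNG1, GDF15, MDM2, PLK2, RRM2B, SESN2, TNFRSF10A, TNFRSF10B and ZMAT3 did not reverse under any of them, and the cause of the reversals of 19 others was not tested. TRIAP1, at 0.00, had no direction to keep and is not among these values. With 7 genes past the threshold in all, the number was 2 with library totals alone, 21 with DESeq2, 0 with limma-voom, 0 with the largest row of each gene and 2 with either FPKM pseudocount (1 or 0.1). The median of the targets was -0.09 with library totals alone (all genes -0.11, with 11 of 30 targets above 0), 0.09 with the largest row, and -0.11 and -0.12 with FPKM plus 1 and plus 0.1 (22 targets tested, all genes -0.06 and -0.07). With the largest row, 2 targets had an unadjusted p under 0.05, FDXR was at -0.43 and PPM1D at 0.28. With library totals alone, DDB2 was at -0.07, GADD45A at -0.01 and TP53I3 at -0.05. With FPKM plus 1 and plus 0.1, DDB2 was at -0.17 and -0.18, GADD45A at -0.03 and -0.03, PHLDA3 at -0.58 and -0.61, RPS27L at -0.11 and -0.12, and TP53I3 at -0.12 and -0.12. SESN1 was at 0.01 with DESeq2, DESeq2 size factors, upper-quartile factors and limma-voom. With the GC and length trend removed, BAX was at -0.10, CDKN1A at -0.05, MDM4 at 0.28, PERP at 0.06, SESN1 at 0.22 and TP53I3 at -0.12.

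With the replicate number as a block, 334 genes and 1 target, MDM2 (adjusted p = 0.033), passed, and SESN1 was at 0.01. Of the other genes named, TP53BP1 and CASP8AP2 passed (adjusted p = 0.0393 and 0.0431). Same-numbered libraries deviated together with a correlation of 0.222 over 7986 genes, but with 2 pairs the numbers were not taken to pair the samples. The block and the removal of the trend together gave 14 genes, BAX at -0.10, CDKN1A at -0.04, DDB2 at -0.01, MDM4 at 0.28, PERP at 0.06, SESN1 at 0.22 and TP53I3 at -0.12.

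Leaving out 1 library, with or without the trend, gave 12 to 3166 genes and 0 to 8 targets past the threshold, 0 to 15 targets with an unadjusted p under 0.05 and a median of -0.12 to 0.02. The range over these fits was -0.11 to 0.21 for BAX, -0.04 to 0.38 for BBC3, -0.78 to 0.85 for BTG2, -0.24 to 0.30 for CDKN1A, -0.20 to 0.20 for DDB2, -2.46 to 0.23 for FAS and -0.06 to 0.35 for FDXR. It was -0.18 to 0.21 for GADD45A, -0.37 to 0.40 for MDM4, -0.29 to 0.12 for PERP, -0.01 to 0.22 for PHLDA3, -0.13 to 0.42 for PLK3, -2.06 to 0.28 for PPM1D and -0.02 to 0.69 for RPS27L. It was -0.38 to 0.75 for SESN1, -0.68 to 0.03 for TIGAR, -0.18 to 0.17 for TP53I3, -0.24 to 0.71 for TP53INP1, -0.17 to 0.29 for TRIAP1 and -0.47 to 0.02 for XPC. Targets under 1 CPM (BTG2, FAS, SESN1 and TP53INP1) rest on few counts, with standard errors from 0.60 to 0.96 in the edgeR fit of all libraries. How large a difference could be detected for these genes was not computed.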
